A study of Mus musculus with 24 samples.

Results

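L1Md elements are the mouse-specific LINE-1 (L1) retrotransposons, and this report describes their RNA in mouse embryonic stem cells (ESCs). The members were all repeat loci whose annotated family name begins with L1Md in the LINE class, which gave 126672 of the 5147736 repeat loci measured, in 6 of 1562 repeat families. L1Md_F2 held 64898 loci, L1Md_T 23688, L1Md_A 16844, L1Md_F3 16146, L1Md_F 4016 and L1Md_Gf 1080. The other 126 L1 families, called older L1 here, held 778504 loci. The study asked how naive ESCs with low mitochondrial membrane potential (ΔΨm), which are quiescent, differ from other ESCs in metabolism, chromatin and transcription. Total RNA was depleted of ribosomal RNA and sequenced in 24 libraries, 2 for each of 12 groups, in 6 experiments with a table of values each.

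High and low ΔΨm ESCs were the top and bottom 5% of cells by the dye TMRM, sorted from E14 naive ESCs in serum-free medium with the 2i inhibitors and LIF. LowSAM25 and LowSAM50 were low ΔΨm ESCs given 25 or 50 µM S-adenosylmethionine (SAM), the methyl donor of DNA and histone methylation, for 24 h, and that table held no cells without SAM. The siMat2a cells received 40 nM siRNA against Mat2a, the enzyme that makes SAM, and siCtr cells a control siRNA. FAOi cells received 100 µM etomoxir (ETO), an inhibitor of fatty acid oxidation, for 4 days, and their controls water (H2O). MYCi cells received 64 µM of a MYC inhibitor for 3 days, and their controls DMSO. EedKO and Het were Eed null and Eed heterozygous lines of 129/S1 background, each grown out of a blastocyst on feeder fibroblasts in 2i/LIF with serum. The null alleles arose from loxP-flanked Eed deleted by Protamine-Cre in the male germ line, and Eed is a core subunit of Polycomb repressive complex PRC2, which methylates H3K27. The libraries are stated to be independent biological replicates, but which line or culture each Eed library came from was not given, and p-values reflect only how far apart the libraries of a group lie.

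A full-length L1 carries a promoter in its own 5′ end and encodes an RNA-binding protein and an enzyme with endonuclease and reverse transcriptase activity, with which it copies itself. Most copies are cut short at the 5′ end and cannot do so. In the mouse the A, T and Gf families hold the copies that still move, and the F families are mostly ancestral, so that "young" is a fitting name for the A, T and Gf families more than for F, F2 and F3. L1 promoters are held down by DNA methylation, H3K9 methylation and the HUSH complex, and L1 RNA is abundant in early embryos and ESCs.

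Values are FPKM, fragments scaled to feature length and to the fragments counted in a library, and a family value is the mean FPKM over all its loci. A fragment that matched several places was divided among them, so that near-identical L1Md copies share fragments and single loci are not independent. The depth of each library is unknown from these values. Tables were normalised separately, so levels were compared only within a table. Within a table FPKM are relative to all counted fragments, repeats included, and dividing the libraries by size factors taken over Ensembl genes moved log2 fold changes up by 0.75 for Mat2a, 0.79 for ETO, 0.77 for MYCi and 0.44 for SAM. The same shift was -0.05 for the sorted cells and -0.12 for Eed. The silenced or deleted genes were checked first. Mat2a was 48.5 and 45.1 FPKM in siCtr and 13.5 and 9.44 in siMat2a, and Eed was 11.4 and 11.6 FPKM in Het and 2.72 and 2.78 in EedKO. All 10 naive ESC markers listed were above 0.1 FPKM in every library.

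L1Md families were low on average and uneven between loci. L1Md_Gf, L1Md_T and L1Md_A were the 3 highest of the L1Md families in every group other than EedKO, where L1Md_A was below L1Md_F3. In Het, L1Md_Gf was 0.240 and 0.248, L1Md_T 0.207 and 0.214 and L1Md_A 0.181 and 0.187 FPKM per locus, whereas L1Md_F2 was 0.0468 and 0.0459 and L1Md_F 0.0389 and 0.0374. Between 9.57% and 21.2% of L1Md_T loci were at 0 in all 4 libraries of a table, against 39.2% to 70.8% of L1Md_F2 loci. The top 1% of loci carried 9.73% to 30.1% of the L1Md_T signal but 41.7% to 61.4% of that of L1Md_F2. The signal of L1Md_T was thus spread over many loci and that of L1Md_F2 over few.

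**Figure D1:**
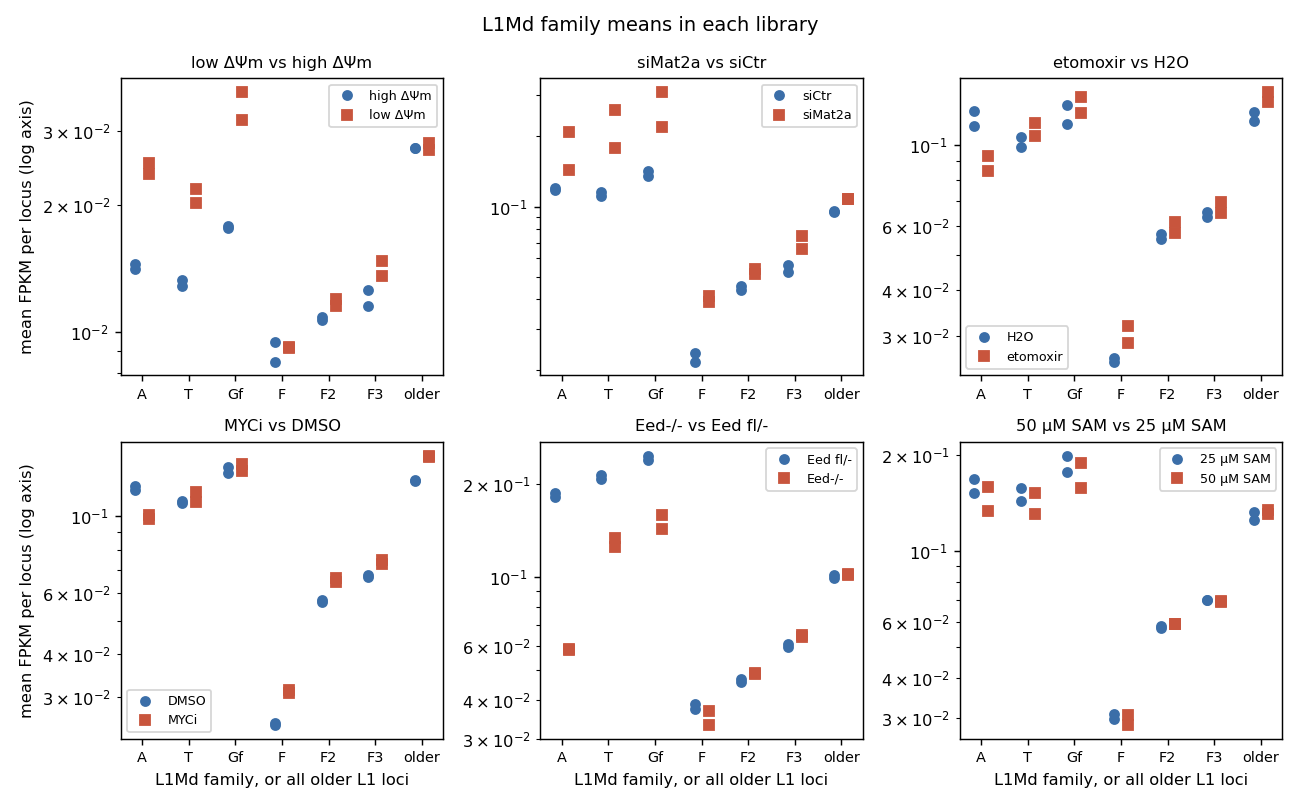
Mean FPKM per locus (log axis) of each L1Md family and of all older L1 loci, with 1 point per library and 1 panel per experiment. In the Eed panel the EedKO points of L1Md_A (0.0581 and 0.0586) lie far below those of Het (0.181 and 0.187), and axes differ between panels because tables were normalised separately.

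Loss of Eed went with the largest difference of any L1Md family, a fall of L1Md_A RNA. L1Md_A was 0.181 and 0.187 FPKM per locus in Het and 0.0581 and 0.0586 in EedKO. The groups did not overlap, and the mean was 3.15-fold lower in EedKO (log2 fold change -1.51 ± 0.04, SE, n = 2 a group, limma with Benjamini-Hochberg adjusted p = 0.00807). In bulk RNA, fewer cells that make a transcript and less of it per cell cannot be told apart. L1Md_T fell 1.62-fold, from 0.207 and 0.214 to 0.125 and 0.134 FPKM per locus (limma adjusted p = 0.0298). L1Md_Gf fell by a like amount, from 0.240 and 0.248 to 0.143 and 0.159 FPKM per locus (limma adjusted p = 0.0358). The remaining families did not pass: L1Md_F had a log2 fold change of -0.10, L1Md_F2 of 0.06 and L1Md_F3 of 0.09, and under gene scaling those of F2 and F3 were -0.04 and -0.01. Hence 3 of 6 L1Md families passed, all lower, where 7.03% of all 1450 families passed. Among the 455 families with at least 1000 loci, L1Md_A had the lowest log2 fold change, L1Md_Gf the third and L1Md_T the fourth lowest.

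The fall was a difference from the rest of L1 in the same libraries. Older L1 loci together were 0.102 and 0.0993 FPKM per locus in Het and 0.102 in both EedKO libraries. Relative to them, L1Md_A, L1Md_T and L1Md_Gf were lower by 1.52, 0.68 and 0.68 on the log2 scale (limma adjusted p = 0.00821, 0.0349 and 0.0400), where 4.76% of all families passed. Relative to L1Md_F2, the same 3 families passed (log2 fold changes -1.57, -0.72 and -0.72), where 7.8% of all families passed. All 126 older L1 families had log2 fold changes above that of L1Md_A, with a median of 0.04. Each locus of L1Md_A averaged 3.87 and 4.07 times the level of an L1Md_F2 locus in Het and 1.2 and 1.19 times in EedKO. The ratio of L1Md_A to L1Md_T went from 0.874 in both Het libraries to 0.464 and 0.437 in EedKO. L1Md_A thus went down further than L1Md_T in both EedKO libraries, a difference given without a test. In the test with no reference, leaving out any of the 4 libraries ended the calls of all 3 families (adjusted p 0.0589 to 0.145), while the log2 fold change of L1Md_A stayed between -1.53 and -1.48. Fitting the replicate number as a block ended them too (adjusted p = 0.0748 for each). The relative calls also ended with the block and without any 1 library, except that L1Md_A passed without Het replicate 1 (adjusted p = 0.0456 relative to older L1 and 0.0480 relative to L1Md_F2).

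Of the fibroblast markers, which feeder cells would carry, 8 were tested in the Eed table. In EedKO 4 rose and 2 fell, where 24.2% of all genes tested rose and 12.1% fell. All 12 fibroblast markers were matched, 6 were at least 0.1 FPKM in all 4 libraries and 0 were at 0 throughout. Their summed level was 66.9 and 69.1 FPKM in Het and 76.1 and 81.4 in EedKO. The list also summed to 102 and 110 FPKM in high ΔΨm ESCs, for which the methods name coated plates and no feeders. Tables are not on 1 scale, but the sum therefore cannot measure feeder cells. Col1a1, a collagen chain, fell from 5.69 and 6.80 to 0.650 and 0.681 FPKM, and Pdgfrb, a growth factor receptor of mesenchymal cells, rose from 0.680 and 0.594 to 3.89 and 4.36. The summed naive ESC markers were 511 and 549 FPKM in Het and 512 and 597 in EedKO. The part of either list in the L1Md values was not tested.

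**Figure D2:**
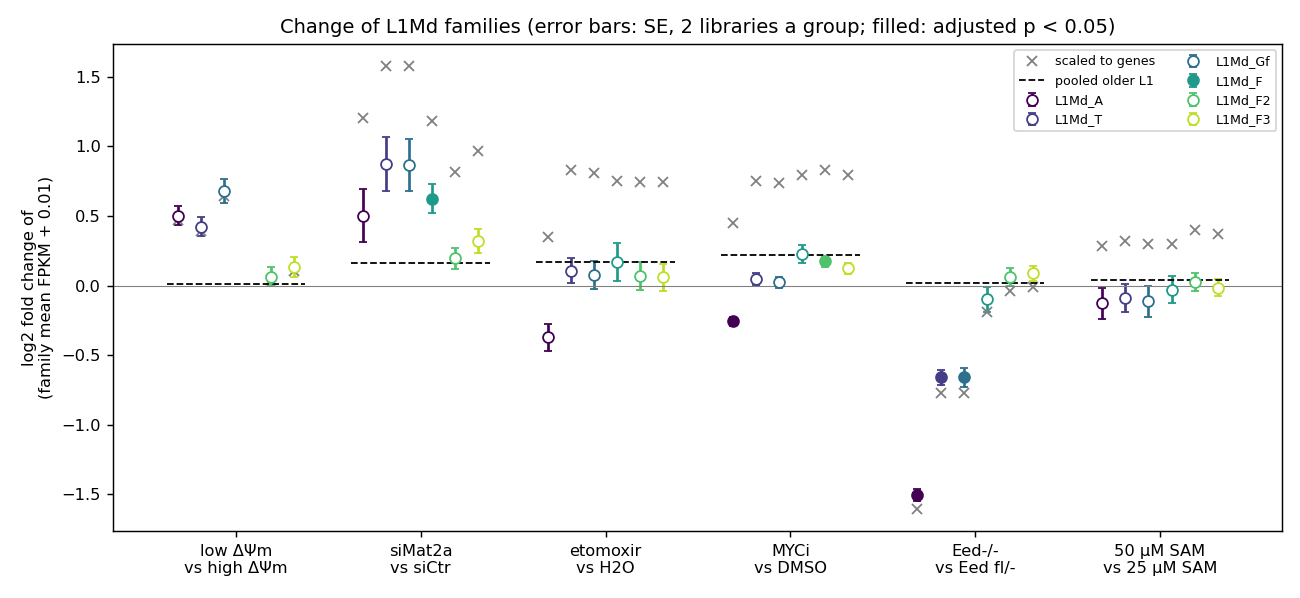
Log2 fold change of each L1Md family mean (FPKM + 0.01) in the 6 comparisons, with SE bars from 2 libraries a group; filled points passed an adjusted p of 0.05, dashes give pooled older L1, and grey crosses give the value after scaling to genes. L1Md_A is at -1.51 in EedKO, and the crosses lie above 0 for L1Md_A in the ETO, MYCi and SAM comparisons, where the unscaled points lie below.

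Values of all 6 L1Md families were higher after Mat2a knockdown, and 1 of them passed. L1Md_F rose from 0.0217 and 0.0235 to 0.0415 and 0.0390 FPKM per locus, 1.78-fold (log2 fold change 0.63 ± 0.10, SE, limma adjusted p = 0.0487), where 11.1% of all 1447 families passed. L1Md_T had a larger mean difference and a larger spread. It was 0.111 and 0.115 FPKM per locus in siCtr and 0.260 and 0.179 in siMat2a, with a log2 fold change of 0.87 ± 0.20 (SE, limma adjusted p = 0.0613). L1Md_Gf was 0.135 and 0.142 in siCtr and 0.310 and 0.218 in siMat2a (log2 fold change 0.87, limma adjusted p = 0.0606). L1Md_A was 0.118 and 0.120 in siCtr and 0.209 and 0.143 in siMat2a (log2 fold change 0.50, limma adjusted p = 0.134). In L1Md_T, L1Md_Gf and L1Md_A the first siMat2a library lay well above the second, and both lay above the siCtr pair. The siMat2a libraries lay close together in L1Md_F. L1Md_F2 and L1Md_F3 had log2 fold changes of 0.20 and 0.32 and did not pass.

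How many L1Md families passed after Mat2a knockdown depended on scaling, and the share of all families that passed when scaled was not counted. Scaled to genes, 5 of 6 passed: L1Md_A at 1.2, L1Md_T at 1.58, L1Md_Gf at 1.58, L1Md_F at 1.19 and L1Md_F3 at 0.97 on the log2 scale, with L1Md_F2 at 0.82 (limma adjusted p = 0.0555). The call of L1Md_F ended without any 1 of the 4 libraries (adjusted p 0.0785 to 0.182) and with the replicate block (adjusted p = 0.0824). Relative to older L1, 0 of 6 passed at an adjusted p of 0.05 with limma, where 0.898% of all families passed, and L1Md_T and L1Md_Gf stood at 0.71 and 0.70 (adjusted p = 0.0798 and 0.0757). Relative to L1Md_F2, 0 of 5 passed, with L1Md_Gf at adjusted p = 0.0541, where 19.5% of all families passed. The naive ESC markers summed to 1224 and 1150 FPKM in siCtr and 660 and 415 in siMat2a. Of the 10 markers 0 rose and 6 fell, where 13.1% of all genes rose and 36.8% fell. The number that fell changed when any 1 library was left out. The sums are not scaled to genes, a step that moved log2 fold changes up by 0.75 here. The part of the markers in the L1Md values was not tested.

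In low ΔΨm ESCs the A, T and Gf families had higher values than in high ΔΨm ESCs, without passing the test. L1Md_A was 0.0141 and 0.0145 FPKM per locus in high and 0.0252 and 0.0236 in low ΔΨm ESCs, a ratio of 1.71 (log2 fold change 0.50 ± 0.07, SE, limma adjusted p = 0.0918). L1Md_T was 0.0129 and 0.0133 against 0.0218 and 0.0202 (log2 fold change 0.42, limma adjusted p = 0.129). L1Md_Gf was 0.0176 and 0.0178 against 0.0371 and 0.0318 (log2 fold change 0.68, limma adjusted p = 0.0874). Neither library of one group overlapped the other group in any of the 3 families. L1Md_F2 and L1Md_F3 were at 0.06 and 0.13 on the log2 scale, and L1Md_F was below the minimum mean of 0.01 and was not tested. Thus 0 of 5 families passed, 3 had an unadjusted limma p under 0.05, and 0.581% of all 1377 families passed. Scaling to the ERCC spike-ins, RNAs added in known amount, let L1Md_Gf pass, and no other alternative changed that count.

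The same 3 families stood high in the ranking of the sorted cells. Among the families with at least 1000 loci, L1Md_Gf had the fourth, L1Md_A the seventh and L1Md_T the eighth highest log2 fold change. Older L1 loci were 0.0274 FPKM in both high and 0.0281 and 0.0271 in both low ΔΨm libraries, and 112 of 115 older L1 families had a lower log2 fold change than L1Md_A. Relative to older L1 the test gave 0 of 5 (L1Md_A at 0.50, adjusted p = 0.0803), where 0.581% of all families passed. Relative to L1Md_F2 it gave 0 of 4, where 0.654% passed. L1Md loci took 0.189% and 0.181% of the repeat signal in high and 0.240% and 0.238% in low ΔΨm ESCs. Higher A, T and Gf values thus stood beside level older L1.

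Both inhibitors that induce quiescence went the other way for L1Md_A, and the sign rested on the scaling. With MYCi, L1Md_A fell from 0.122 and 0.119 to 0.0980 and 0.101 FPKM per locus (log2 fold change -0.26 ± 0.03, SE, limma adjusted p = 0.0199), but was higher when scaled to genes (0.45, adjusted p = 0.0114). L1Md_F2 rose from 0.0572 and 0.0566 to 0.0646 and 0.0664 (log2 fold change 0.17, limma adjusted p = 0.0463) and was at 0.83 when scaled. L1Md_T and L1Md_Gf were at 0.05 and 0.02, L1Md_F and L1Md_F3 at 0.23 and 0.12. So 2 of 6 families passed, 1 in each direction, where 45.5% of all 1446 families passed. Scaled to genes all 6 passed as higher, a step that moved log2 fold changes up by 0.77 here. The share of all families that passed when scaled was not counted, so the 6 cannot be read as particular to L1Md. Either unscaled call ended without any 1 library or with the block.

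Ratios within a library do not depend on the scaling. Relative to older L1, which was 0.126 and 0.127 FPKM in DMSO and 0.149 and 0.148 in MYCi, L1Md_A was lower by 0.48 and L1Md_Gf by 0.20 on the log2 scale (limma adjusted p = 0.0151 and 0.0479), where 33.2% of all families passed. Relative to L1Md_F2, L1Md_A was lower by 0.43 (limma adjusted p = 0.0102), where 26.6% passed. An L1Md_A locus averaged 2.14 and 2.1 times an L1Md_F2 locus in DMSO and 1.52 in both MYCi libraries. Both calls relative to older L1 ended when any 1 library was left out (adjusted p 0.0593 to 0.192) and with the block, and that of L1Md_Gf also with a pseudocount of 0.1, with no filter and without the top 1% of loci. The call relative to L1Md_F2 was kept with the block (adjusted p = 0.0467) and without DMSO replicate 2 (adjusted p = 0.0402) and ended without each of the other libraries (adjusted p 0.0511 to 0.0795).

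With ETO, L1Md_A was 0.112 and 0.123 FPKM per locus in H2O and 0.0845 and 0.0930 in ETO (log2 fold change -0.37 ± 0.10, SE, limma adjusted p = 0.0587), and it was at 0.35 when scaled to genes (adjusted p = 0.233). The other families were between 0.06 and 0.17. None of 6 passed with limma, 1 had an unadjusted p under 0.05 and 17.3% of all 1448 families passed. Scaled to genes 5 of 6 passed as higher, L1Md_A not among them. The share of all families that passed when scaled was not counted. L1Md_A averaged 1.97 and 2.23 times L1Md_F2 in H2O and 1.47 and 1.51 times in ETO. Relative to older L1 it was at -0.54 (adjusted p = 0.0529) and relative to L1Md_F2 at -0.44 (adjusted p = 0.0555), and 0.0% of all families passed either test. Naive ESC markers summed to 1015 and 1430 FPKM in H2O and 406 and 378 in ETO, and to 1224 and 1081 in DMSO and 449 and 528 in MYCi. These sums are not scaled to genes, a step that moved log2 fold changes up by 0.79 for ETO and 0.77 for MYCi. The part of the markers in the L1Md values was not tested.

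Between 25 and 50 µM SAM no L1Md family passed the test. L1Md_A was 0.168 and 0.152 FPKM per locus in LowSAM25 and 0.158 and 0.133 in LowSAM50 (log2 fold change -0.13 ± 0.11, SE, limma adjusted p = 0.835). The groups overlapped, as they did for L1Md_T, L1Md_Gf and L1Md_F. L1Md_F2 was 0.0572 and 0.0582 in LowSAM25 and 0.0588 and 0.0590 in LowSAM50, and L1Md_F3 was 0.0701 and 0.0704 against 0.0696 and 0.0693, with no overlap in either family. Log2 fold changes of all 6 families lay between -0.13 and 0.03, and between 0.28 and 0.40 when scaled to genes. None of 6 passed, alone or relative to older L1 or L1Md_F2, none had an unadjusted p under 0.05, and 0.0% of all 1446 families passed.

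Differences between comparisons were tested on the within-table changes, so that each table's own normalisation cancelled only where it was the same for both groups. EedKO against Het differed from low against high ΔΨm in 3 of 5 L1Md families, where 6.03% of all families differed. The difference was -2.01 for L1Md_A, -1.08 for L1Md_T and -1.34 for L1Md_Gf on the log2 scale, and it passed also when scaled to genes. MYCi against DMSO differed from the sorted cells in the same 3 families (26.6% of all families) and ETO against H2O in L1Md_A and L1Md_Gf (12.1%), but none of these calls was kept with the replicate block (adjusted p 0.0660 to 0.0952). Scaled to genes, the L1Md_A difference was -0.02 for MYCi and -0.12 for ETO (adjusted p = 0.890 and 0.626), and L1Md_T and L1Md_Gf changed sign in both contrasts. For MYCi the scaled L1Md_T difference, 0.36, then passed in the other direction (limma adjusted p = 0.0490). Mat2a knockdown was not shown to differ from the sorted cells in any of 5 families (7.34% of all families passed), with a difference of 0.00 ± 0.23 (SE) for L1Md_A, while 3 passed when scaled to genes and 1 with no filter. That 0.00 does not mean equal changes, since the plain ratios of L1Md_A were 1.71 in the sorted cells and 1.48 in siMat2a. The 0.01 added to each mean shrinks low values most, so every contrast against the sorted cells understates their change. MYCi and ETO were not shown to differ in any of 6 families (0.0693% passed), with a difference of 0.11 ± 0.10 (SE) for L1Md_A.

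Single loci were tested where at least 2 libraries of a table reached 0.1 FPKM. This kept 3362 L1Md loci in the sorted cells and 22914, 18731, 18357, 24764 and 21089 in the Mat2a, ETO, MYCi, Eed and SAM tables. With limma no L1Md locus passed in any comparison, and 0.0% of all repeat loci did. At an unadjusted p under 0.05, 7721 L1Md loci (31.2%) were lower and 1119 (4.52%) higher in EedKO, where 7.48% of all repeat loci were lower and 12.6% higher. Of the 7721, 5451 were L1Md_A loci. Of the L1Md_A loci tested, 75.8% reached 0.1 FPKM in Het libraries only, so the 31.2% carries that selection and is not support for a fall. In the other comparisons the L1Md share lay below that of all repeat loci in both directions. In siMat2a 10.7% were higher and 0.799% lower, where 15.1% and 5.05% of all repeat loci were. In the sorted cells the shares were 5.26% and 2.83% (all repeat loci 5.71% and 6.06%), in ETO 6.44% and 1.81% (14.7% and 6.44%), in MYCi 4.38% and 1.04% (11.6% and 5.48%) and in LowSAM50 0.503% and 0.308% (3.99% and 2.43%). A pseudocount of 0.01 in place of 0.1 called 603 L1Md loci higher and 31 lower in siMat2a and 404 higher and 75 lower in ETO. The share of all repeat loci called with that pseudocount was not counted, so these counts cannot be read as particular to L1Md.

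The filter favours loci that are high in 1 group, since 2 libraries make a group. Of the 7049 L1Md_A loci tested in the Eed table, 41.8% of the family, 5345 (75.8%) reached 0.1 FPKM in Het libraries only, against 3.87% of all repeat loci. Of those tested in the sorted cells, 37.9% of L1Md_A and 40.6% of L1Md_T loci reached it in low ΔΨm libraries only. Loci were therefore also counted with no filter, among all those above 0 in any library of a table, a choice made after seeing the data. In EedKO, 9971 of 14188 such L1Md_A loci (70.3%) were lower with no overlap of the groups and 784 (5.53%) higher, where 14.6% of all repeat loci were lower and 20.5% higher. For L1Md_T 12605 of 21404 loci (58.9%) and for L1Md_Gf 449 of 779 (57.6%) were lower, and for L1Md_F2 5639 of 39478 (14.3%).

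The sizes of the locus differences are given for the tested loci and carry the same selection. Their median log2 fold change in EedKO was -1.29 for L1Md_A, -0.56 for L1Md_T, -0.61 for L1Md_Gf and 0.11 for L1Md_F2, beside 0.11 for all repeat loci. L1Md_A loci with a mean of 0.2 to 0.5 FPKM had a median of -1.77 (n = 3005), and the 104 loci at 1 FPKM or more had a median of -0.64 with quartiles of -3.27 and 0.11. The most abundant L1Md_A loci were thus a mixed set.

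Counted in the same way with no filter, 14700 of 21421 L1Md_T loci (68.6%), 524 of 869 L1Md_Gf loci (60.3%) and 8802 of 14145 L1Md_A loci (62.2%) were higher in siMat2a with no overlap, where 24.5% of all repeat loci were higher and 10% lower. In low ΔΨm ESCs, 5225 of 11959 L1Md_A loci (43.7%), 7655 of 18675 L1Md_T loci (41.0%) and 294 of 603 L1Md_Gf loci (48.8%) were higher, where 13.6% of all repeat loci were higher and 13.7% lower. L1Md_F2 loci stayed near the background there, with 13.5% higher and 9.46% lower. L1Md_A loci were lower in 5920 of 14026 cases with ETO (42.2%; all repeat loci 12.3% lower and 22.5% higher) and in 5355 of 13772 with MYCi (38.9%; all repeat loci 12.3% lower and 22.8% higher). In LowSAM50, 19.7% of L1Md_A loci were lower and 9.92% higher, beside 11.3% lower and 13.9% higher of all repeat loci. These loci share fragments, so that the shares describe the family and are not independent counts.

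**Figure D3:**
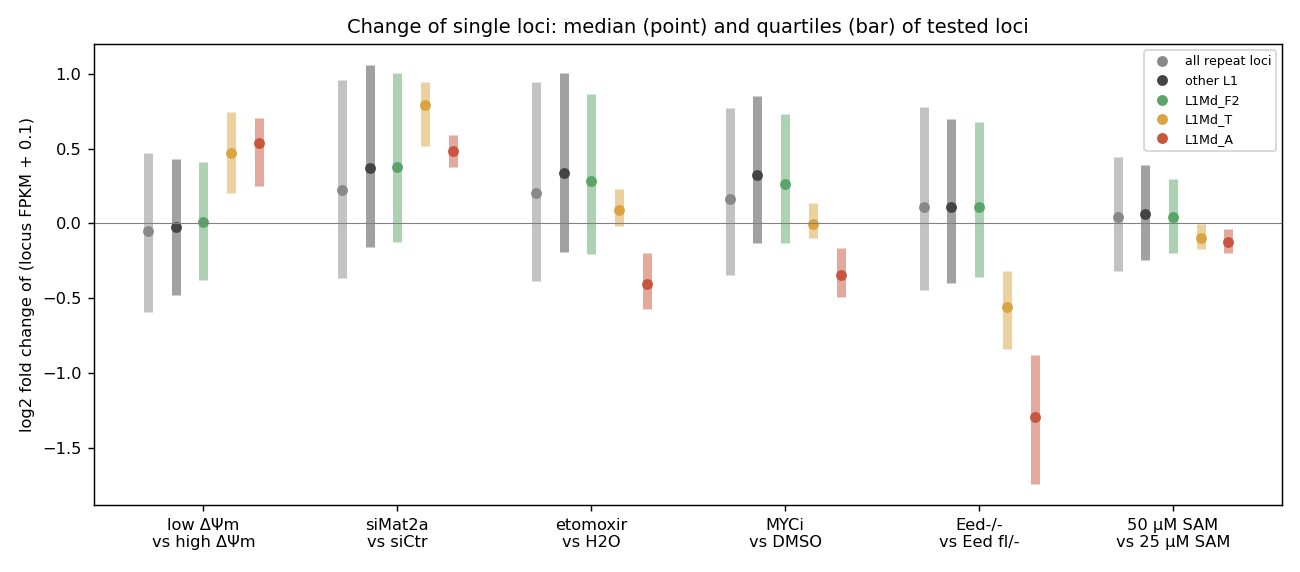
Log2 fold change of single tested loci (FPKM + 0.1), with the median as a point and the quartiles as a bar, for all repeat loci, older L1 and 3 L1Md families. The L1Md_A median is -1.29 in EedKO and 0.54 in low ΔΨm ESCs, over loci of which many passed the filter through 1 group only.

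Locus changes in ETO and MYCi had a Pearson correlation of 0.65 over 4405 L1Md_A loci, a description only, since these loci share fragments. For the older L1Md_F2 it was 0.48 over 4438 loci. Between the ETO and Eed tables it was 0.53 over 4502 L1Md_A loci and 0.09 over 3841 L1Md_F2 loci. All these loci had passed the filter on low values, and the pseudocount of 0.1 ties the log2 change to the level of a locus. L1Md_A medians under 0.2 and at 0.2 to 0.5 FPKM were -0.32 and -0.57 with ETO and -0.27 and -0.48 with MYCi. In EedKO they were -1.03 and -1.77. The correlations therefore cannot tell agreement of single loci from a shift of the whole family.

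**Figure D4:**
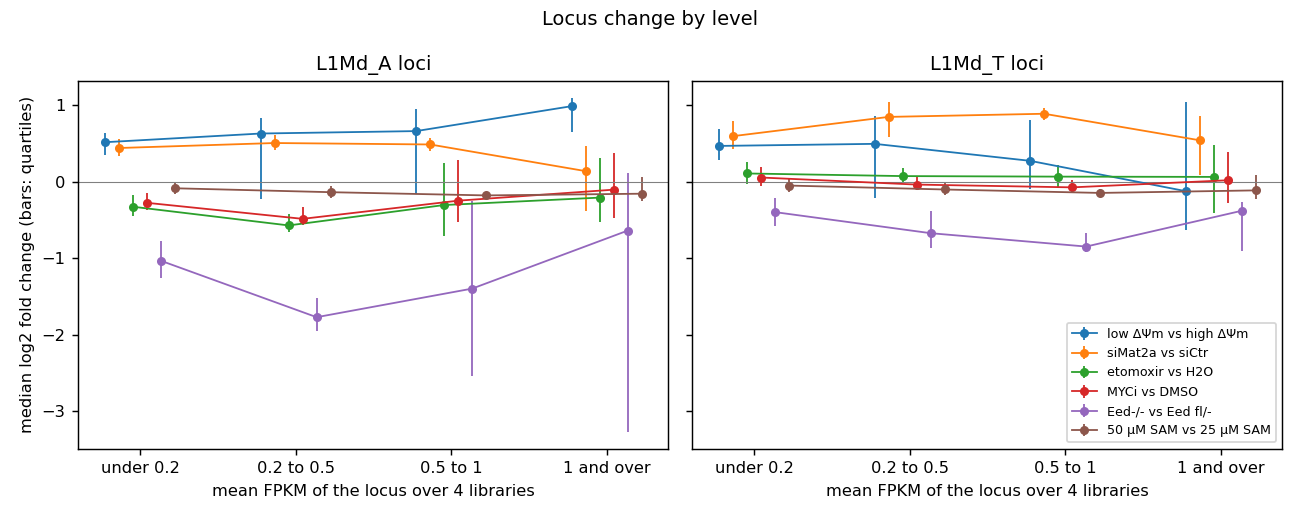
Median log2 fold change (quartiles as bars) of L1Md_A and L1Md_T loci by their mean FPKM over the 4 libraries of a table. In EedKO the L1Md_A medians run from -1.03 under 0.2 FPKM to -1.77 at 0.2 to 0.5 and -0.64 at 1 and over, where the quartiles span -3.27 to 0.11.

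A few loci stood far above their families. The 10 described were those with the highest mean of the 6 table means, a rule for naming only, since tables are not on 1 scale. The first was L1Md_F2-HOMER210745, where the number is the locus number of the HOMER annotation. It was 337 and 337 FPKM in siCtr and 188 and 103 in siMat2a, 271 and 384.5 in H2O and 133 and 122 in ETO, but 52.4 and 51.7 in Het and 113 and 101 in EedKO. Its values thus ran against those of the A, T and Gf families in both the Mat2a and the Eed table. None of these differences passed the test over all loci. Of the 10 highest loci, 6 were of L1Md_F3, 3 of L1Md_F2 and 1 of L1Md_A. That one, L1Md_A-HOMER3981433, was 24.1 and 24.6 FPKM in siCtr, 16.5 and 9.0 in siMat2a, 15.7 and 17.9 in Het and 13.0 and 11.0 in EedKO.

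L1Md_F3-HOMER3916118 and L1Md_F3-HOMER3915302, also among the 10 highest, were near absent from high ΔΨm ESCs. The first was 0.133 and 0.0643 FPKM in high and 16.9 and 15.6 in low ΔΨm ESCs, and the second 0.133 and 0.0643 in high and 15.7 and 14.2 in low. Their values in high ΔΨm ESCs were identical, and whether the copies share fragments was not tested. The first was 7.28 and 10.4 FPKM in siCtr and 137 and 77.1 in siMat2a, and 30.2 in both Het libraries and 70.3 and 66.0 in EedKO. With ETO it went from 2.01 and 2.21 to 0.313 and 0.584 and with MYCi from 2.22 and 3.01 to 0.887 and 0.775, and it was 15.6 and 12.9 in LowSAM25 and 11.6 and 8.11 in LowSAM50. Both loci were thus higher in low ΔΨm, siMat2a and EedKO cells and lower in both inhibitor treatments. Neither passed the test (limma adjusted p = 0.198 and 0.216 in the sorted cells). The L1Md_A family went the other way in EedKO only, at -1.51. Its unscaled log2 fold changes were 0.50 in low ΔΨm, 0.50 in siMat2a, -0.37 in ETO and -0.26 in MYCi cells.

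Rows numbered next to both loci were higher with them in low ΔΨm, siMat2a and EedKO cells. Each F3 locus stood in the same order of repeats, after MT2_Mm, the promoter repeat of the MERVL endogenous retrovirus, another L1Md_F3 and RLTR6B_Mm, and before L1_Mus2, Tigger17a and copies of B1_Mus1. Listed rows within 6 numbers on each side, the locus included, were counted around loci singled out after their values were seen. In low ΔΨm ESCs 10 of 12 around the first and 10 of 11 around the second were higher with no overlap. The share of all repeat loci above 0 was 13.6%. In siMat2a 12 of 13 around each were higher (all repeat loci 24.5%), and in EedKO 11 of 13 and 10 of 12 (20.5%). In ETO 3 of 10 rows around the first were higher and 4 lower (all repeat loci 22.5% and 12.3%). In MYCi 0 of 10 were higher and 6 lower (22.8% and 12.3%). In LowSAM50 3 of 11 were higher and 3 lower (13.9% and 11.3%). L1_Mus2 beside the first locus went from 0.173 and 0.134 to 20.1 and 19.6 FPKM in low ΔΨm ESCs. Whether 1 transcript covers these rows was not tested.

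**Figure D5:**
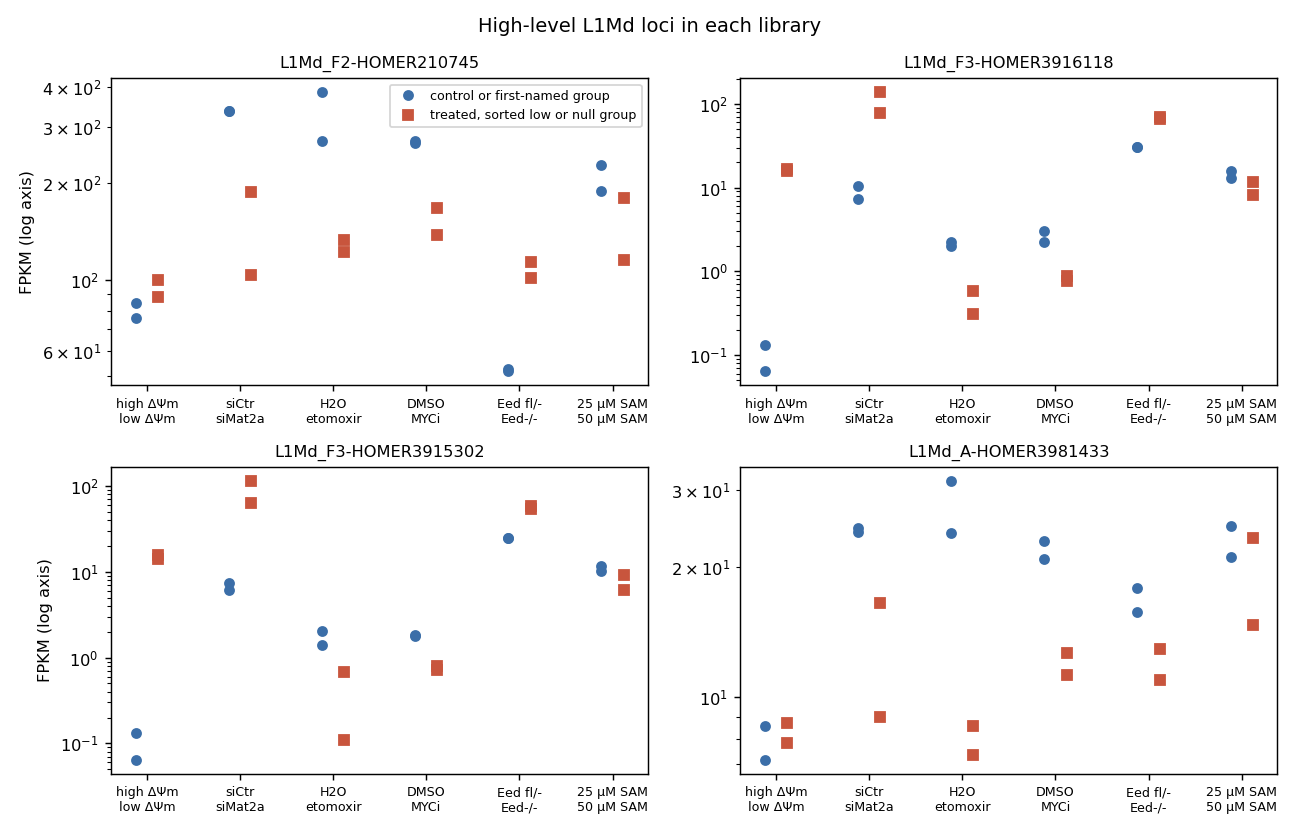
FPKM (log axis) in each library of 4 of the 10 highest L1Md loci, with the first-named group of each comparison as blue circles and the second as red squares. The F3 loci are at 0.0643 to 0.133 in high and 14.2 to 16.9 in low ΔΨm ESCs, and below 1 with ETO and MYCi.

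In EedKO the L1Md loci with the lowest log2 fold changes, picked after their values were seen, were 3 consecutively numbered L1Md_A loci. L1Md_A-HOMER4583648 was 6.45 and 6.31 FPKM in Het and 0.0707 and 0.0661 in EedKO, and L1Md_A-HOMER4583647 was 3.83 and 4.88 in Het and 0.00609 and 0.0224 in EedKO. Of 13 rows within 6 numbers of the former, 11 were lower in EedKO with no overlap, where 14.6% of all repeat loci above 0 were lower. The window was centred on a locus picked for its fall, and whether these rows share fragments was not tested. The opposite case was L1Md_F2-HOMER1577855, at 2.03 and 2.58 FPKM in Het and 28.7 and 30.5 in EedKO. The adjusted p was 0.116 for each.

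Genes known to control L1 were then read in the same tables, from lists of 20 genes that silence L1 at the DNA or chromatin and 17 that act on L1 RNA or its retrotransposition. In EedKO, 0 silencing genes rose and 9 fell, where 24.2% of all genes tested rose and 12.1% fell. Scaled to genes 17 fell, but the share of all genes that fell when scaled was not counted. Without Het replicate 1 or 2 the number that fell was 3, without EedKO replicate 1 it was 7 and without EedKO replicate 2 it was 10. Dnmt3l, a cofactor of the de novo DNA methyltransferases, fell from 85.7 and 96.2 to 34.4 and 42.4 FPKM, and Atrx, a chromatin remodeller, from 18.1 and 18.9 to 9.67 and 10.2. Zc3hav1, which binds viral and L1 RNA, rose from 8.01 and 8.05 to 16.2 and 17.9 FPKM, and Mov10, a helicase that restricts L1, from 17.5 and 18.6 to 29.8 and 36.3. In the same RNA list Drosha fell from 61.4 and 66.2 to 39.1 and 40.8 FPKM, and Ythdc1 from 7.28 and 7.50 to 4.98 and 4.85. L1td1, an RNA-binding protein descended from an L1 open reading frame, fell from 80.0 and 84.9 to 34.1 and 41.7 FPKM. Of the RNA list, 3 rose and 6 fell, and the number that fell was 0 without either Het library, 2 without EedKO replicate 1 and 5 without EedKO replicate 2.

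In the sorted cells few L1 control genes moved. Mphosph8, the chromatin reader of HUSH, rose from 5.57 and 6.75 to 11.0 and 10.3 FPKM in low ΔΨm ESCs (log2 fold change 0.79, limma adjusted p = 0.00289). Dnmt3l fell from 4.6 and 5.16 to 3.16 and 2.86 FPKM and Dnmt3b, a de novo DNA methyltransferase, from 15.6 and 17.2 to 11.3 and 10.7. Of the silencing list 1 rose and 2 fell, and of the RNA list 2 rose (Mettl3, the m6A methyltransferase of RNA, and Dgcr8 of the microRNA processor) and 0 fell, where 14.0% of all genes rose and 6.45% fell. Scaled to genes, 4 silencing genes rose and 7 fell, with the share of all genes not counted under that scaling. Leaving out 1 library moved these counts too, to 0 silencing genes that fell without low ΔΨm replicate 2, to 1 without low replicate 1 or high replicate 2, to 2 that rose without high replicate 2, and to 0 RNA genes that rose without low replicate 1 and 1 without high replicate 1 or low replicate 2.

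In the other treatments more silencing genes fell than rose, as did more genes in all. In siMat2a 1 of 20 rose, Dnmt3l from 1.85 and 1.95 to 7.09 and 5.24 FPKM, and 9 fell, where 13.1% of all genes rose and 36.8% fell. The number that fell was 0 without either siCtr library, 19 without siMat2a replicate 1 and 16 without siMat2a replicate 2. Uhrf1, which brings DNMT1 to replicated DNA, fell from 145 and 139 to 54.2 and 33.8 FPKM. With ETO 0 rose and 15 fell (13.9% and 51.3% of all genes) and with MYCi 0 rose and 19 fell (7.89% and 57.8%). Scaled to genes 5 rose and 12 fell with ETO and 3 rose and 14 fell with MYCi. The shares of all genes when scaled were not counted. For ETO the number that fell was 4 and 3 without ETO replicate 1 and 2, and 19 and 16 without H2O replicate 1 and 2. Uhrf1 went from 134 and 175 to 28.1 and 27.1 FPKM with ETO and from 158 and 145 to 41.2 and 49.6 with MYCi. L1td1 fell from 65.0 and 90.5 to 17.4 and 16.4 FPKM with ETO and from 83.7 and 75.6 to 21.0 and 25.3 with MYCi. In LowSAM50 no gene of either list passed, where 0.389% of all genes rose and 0.493% fell.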

How the data were processed

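The 24 libraries were assigned to groups by the submitters' titles, 2 per group, in 6 tables of 4. Per the methods of the study, the authors trimmed adapters (Trim Galore, cutadapt), mapped to mm10 plus the ERCC sequences (TopHat2 2.1.1), removed duplicates (SAMtools 1.9) and counted fragments without strand with featureCounts, as fractions where a fragment met several places or features, over Ensembl genes, NONCODE transcripts and HOMER 4.10 repeats. The deposited values are FPKM, which the authors computed with edgeR. Fractions spread reads over near-identical L1 copies, and counting without strand cannot part L1 RNA from transcripts that run through an L1. Neither locus positions nor sequences were analysed here.

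Tests used limma 3.58.1 with trend (R 4.3.3), two-sided, with Benjamini-Hochberg adjustment over all features and a threshold of 0.05. Families (at least 10 loci, mean at least 0.01) were tested as log2(mean FPKM + 0.01), and loci and genes (at least 0.1 FPKM in 2 libraries) as log2(FPKM + 0.1), so that changes of low values are understated. Relative tests subtracted pooled older L1 or L1Md_F2. The fit was tested on simulated data. Alternatives were other pseudocounts, no filter, scaling to genes or ERCC, leaving out the top 1% of loci, a replicate block and leaving out each library. Named were all families and the 10 highest loci, and other loci were picked after their values were seen. Genes were named from the 2 largest changes each way, per gene list and comparison, among those that passed. Not all genes that met this rule are named. Loci whose groups did not overlap were counted with no filter, among loci above 0 in any library, a choice made after seeing the data. The members and lists were chosen with earlier results of these data known.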

Additional observations from a re-analysis of the deposited data

Results flagged for a closer look

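The change of an L1Md family differed by test between comparisons in 8 cases, each a difference of 2 within-table log2 fold changes (limma, Benjamini-Hochberg adjusted over all families). EedKO against Het minus low against high ΔΨm was -2.01 ± 0.07 (SE) for L1Md_A (adjusted p = 1.4e-04), -1.08 for L1Md_T (adjusted p = 0.00273) and -1.34 for L1Md_Gf (adjusted p = 0.00321). These 3 passed also when scaled to genes (-2.08, -1.16 and -1.41), with the replicate block and without any 1 library (adjusted p 0.00162 to 0.0314).

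MYCi against DMSO minus the sorted cells was -0.76 for L1Md_A (adjusted p = 0.00513), -0.38 for L1Md_T (adjusted p = 0.0221) and -0.66 for L1Md_Gf (adjusted p = 0.0141). Scaled to genes they were -0.02, 0.36 and 0.10, so that L1Md_T and L1Md_Gf turned. The scaled L1Md_T difference passed in the other direction (limma adjusted p = 0.0490). ETO against H2O minus the sorted cells was -0.87 for L1Md_A (adjusted p = 0.0136) and -0.60 for L1Md_Gf (adjusted p = 0.0441). Scaled to genes they were -0.12 and 0.17. The cells of the Eed table differed from the sorted cells in strain, medium and feeders, which cannot be told apart from the genotype in these differences between tables.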

How the results depend on the processing

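Depth is unknown, so limits on low loci cannot be stated. Of 623 family values recomputed under alternatives, 473 kept direction and side of the threshold, 103 lost their call, 25 gained one and 22 turned, and of 685 counts 162 moved by over 1.5 times. The cause was not tested. Scaled to genes, families past the threshold numbered 5 for ETO, 6 for MYCi and 5 for Mat2a, and 3 for Mat2a minus the sorted cells. Values that turned were L1Md_A at 0.35 for ETO and 0.45 for MYCi, L1Md_F2 at -0.0362 and L1Md_F3 at -0.0105 for Eed, and for SAM L1Md_A at 0.28, L1Md_T at 0.32, L1Md_Gf at 0.30, L1Md_F at 0.30 and L1Md_F3 at 0.37. The differences of ETO from the sorted cells turned to 0.44 for L1Md_T and 0.17 for L1Md_Gf, and those of MYCi to 0.36 and 0.10. ERCC scaling gave 1 family in the sorted cells. Without the top 1% of loci 5 families passed for Mat2a, 1 relative to older L1 for MYCi and 1 for ETO minus the sorted cells, and L1Md_Gf turned to -0.0462 for MYCi, and L1Md_F to 0.0120 and L1Md_F3 to 0.0320 for SAM. Without the filter 1 passed relative to older L1 for MYCi and 1 for Mat2a minus the sorted cells. A pseudocount of 0.001 gave 1 relative to L1Md_F2 for Mat2a, and 0.1 gave 1 relative to older L1 for MYCi and 1 for ETO minus the sorted cells. For loci, 0.01 called 603 higher and 31 lower for Mat2a and 404 higher and 75 lower for ETO. The shares of all families or all repeat loci called were not counted under the alternatives.

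Libraries with the same replicate number were not paired by the labels, and their deviations from the group means correlated at -0.08 to 0.28 over families. With the replicate block 0 families passed for Eed, MYCi and Mat2a, 0 relative to older L1 for Eed and MYCi, 0 relative to L1Md_F2 for Eed, and 0 for ETO and MYCi minus the sorted cells, while 2 passed relative to L1Md_F2 for Mat2a.

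Leaving out each library gave 0 to 1 families for ETO and Mat2a and 0 for Eed and MYCi. Relative to older L1 it gave 0 to 1 for ETO, Eed and Mat2a and 0 for MYCi, and relative to L1Md_F2 0 to 1 for ETO, Eed and MYCi and 0 to 2 for Mat2a. Minus the sorted cells it gave 0 to 2 for ETO, 1 to 3 for MYCi and 0 to 1 for Mat2a. Loci called higher were 0 to 447 for ETO, 0 to 282 for Eed, 0 to 215 for MYCi and 0 to 802 for Mat2a, and lower 0 to 5, 0 to 20 and 0 to 21 for ETO, Eed and Mat2a. L1Md_Gf ranged from -0.00248 to 0.16 for ETO and -0.00660 to 0.0529 for MYCi, and for SAM from -0.23 to 0.00411, L1Md_F from -0.0674 to 0.00898 and L1Md_T from -0.19 to 0.0108. The group left with 1 library was assumed to vary like the other, and no share of all features called was counted for these fits.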
